A study of Mus musculus with 12 samples.

Results

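The cytosolic sulfotransferases examined here are 10 mouse genes chosen by name, namely Sult1a1, Sult1b1, Sult1c2, Sult1d1, Sult1e1, Sult2a1, Sult2a2, Sult2a8, Sult3a1 and Sult5a1. The choice was made with earlier results of these data known. The 10 genes were read from the liver tables of 57180 genes, which list 27 gene names of the family, pseudogenes included. All 10 passed the filter on low counts, which left 19350 genes in all.

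RNA was measured in 12 livers in 4 groups of 3 mice, with both sexes of each of the genotypes called Het and KO. The study used a mouse model of Cockayne syndrome, a disorder of transcription-coupled DNA repair. Every mouse was Csa-/- by genotype, Csa being the gene Ercc8. All had received the AAV9-CSA vector as newborns, by injection into the cerebral ventricles. This vector carries human ERCC8 under the ubiquitous chicken β-actin promoter. No group was therefore wild type or untreated, and the comparison is between Xpa genotypes. The Het mice are Csa-/-;Xpa+/- littermates matched in age. The KO mice were taken at the humane endpoint, so that genotype and end-stage disease cannot be told apart. Ages in days are not given in the labels. For KO the labels give Csa-/-;Xpa+/+ while the paper describes mice without Xpa, so the names KO and Het defined the groups. Xpa lay between 3.10 and 6.34 CPM in the Het livers and between 0.992 and 1.83 CPM in the KO livers (log2 fold change −1.83 ± 0.163 (SE, n = 6 against 6), edgeR adjusted p = 4.14e-05). The level of Xpa thus followed the group name and not the written genotype.

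The depth was 30044812 to 43634073 assigned counts per liver. CPM are normalized counts, relative to the scaled size of each library, and TPM are also divided by transcript length, so that genes were compared with each other in TPM only. Among genes higher in Het females than in Het males, with the family left out, Het_F_126 had the lowest value of its group for 49 of 86. This was not particular to that liver, since KO_M_118 was lowest of its group for 46, KO_F_108 for 42 and Het_M_119 for 40. Het_F_126 was also the Het female lowest in Sult2a1, Sult2a2 and Sult3a1, and values without it are given below where a call or a direction changed.

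Sulfotransferases move a sulfonate group from the donor PAPS onto a hydroxyl or amino group of a small molecule. The product is more soluble in water and is often inactive or ready for excretion. Members of the Sult1 subfamily act mainly on phenols, catechols, thyroid hormones and estrogens, and members of the Sult2 subfamily on hydroxysteroids and bile acids. The liver is rich in these enzymes, and in rodents several of them differ between the sexes under the control of growth hormone.

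The genes lie in 6 places of the GRCm39 genome. Sult1b1, Sult1d1 and Sult1e1 lie side by side on chromosome 5, within a stretch of 78271 bases. Sult2a2, Sult2a1 and Sult2a8 lie within 713267 bases of chromosome 7, in a row of related Sult2a genes. Sult1a1 lies elsewhere on chromosome 7, Sult3a1 on chromosome 10, Sult1c2 on chromosome 17 and Sult5a1 on chromosome 8. Sult2a1 and Sult2a2 are close copies, with 97.9% identity over their aligned coding bases. Of all stretches of 100 bases of the Sult2a2 transcript, 35.3% occur unchanged in another sulfotransferase transcript, as do 11.5% of those of Sult2a1. The division of reads between these genes is therefore uncertain, whereas the other 8 genes share no such stretch.

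The sequence around the transcription start is shown for Sult1e1, which had the largest fitted increase in KO livers over both sexes, and for Sult2a8, which had the largest decrease. Each sequence runs on the gene's own strand from 250 bases before the annotated start of the canonical transcript to 30 bases from it on. Capitals mark matches to a motif, which was searched on both strands. Sult1e1 (chr5:87739432-87739711, minus strand) holds AGGTCA, the hexamer bound by nuclear receptors, on the opposite strand at position −122. Sult2a8 (chr7:14172447-14172726, minus strand) holds AGGTCA at positions −164 and −90 and ATCAAT, the letters of Onecut and Cux factors, at positions −147 and −114.
Sult1e1: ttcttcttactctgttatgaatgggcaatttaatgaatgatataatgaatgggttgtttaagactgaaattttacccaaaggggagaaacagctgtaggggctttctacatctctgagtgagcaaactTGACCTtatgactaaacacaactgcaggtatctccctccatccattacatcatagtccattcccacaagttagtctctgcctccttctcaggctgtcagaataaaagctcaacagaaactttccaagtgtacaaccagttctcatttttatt
Sult2a8: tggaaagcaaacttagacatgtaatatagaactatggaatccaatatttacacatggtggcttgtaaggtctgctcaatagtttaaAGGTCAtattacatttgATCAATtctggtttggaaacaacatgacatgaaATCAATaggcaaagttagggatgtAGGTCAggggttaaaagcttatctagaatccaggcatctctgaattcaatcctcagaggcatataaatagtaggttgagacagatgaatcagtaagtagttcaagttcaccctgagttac

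Windows of 8 of the 10 genes were searched. Of 21757 windows of the same length at protein-coding genes, GTTAATNAT, the letters bound by HNF1 factors, was present in 0.8%, AGGTCA in 14.2% and ATCAAT in 6.9%. GTTAATNAT was present in the windows of Sult1c2 (position −89) and Sult1d1 (position −11). TTCNNNGAA, the letters bound by STAT factors, was present in 8.4% of windows, among them those of Sult1b1 (position −123) and Sult3a1 (position −98). The window of Sult3a1 also held ATCAAT on the opposite strand, at position −63. CACGTG, the E-box, was present in 7.3% of windows and in none of the 8. No motif of these 5 was found in the windows of Sult1a1 and Sult5a1. A match is a description of the letters and not a measured binding site.

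The make-up of the family differed between the genotypes. In the Het males, Sult2a8 accounted for 57.5% to 68.5% of the summed TPM of the 10 genes, with Sult1a1 second at 20.1% to 24.5%. In the KO males, Sult1a1 accounted for 60.7% to 67.4% and Sult2a8 for 6.77% to 11.7%. The Het females had no common leader, since Sult1a1 led in Het_F_111 at 25.2%, Sult2a1 in Het_F_115 at 28.8% and Sult2a8 in Het_F_126 at 42.2%. In the KO females, Sult1a1 led with 37.6% to 43.2%, followed by Sult2a1 with 22.4% to 29.3%, while Sult2a8 made up 0.177% to 2.66%. The summed TPM was 424 to 957 in the Het females, 355 to 451 in the Het males, 866 to 924 in the KO females and 439 to 503 in the KO males, so that the summed levels of KO and Het livers overlapped in each sex.

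**Figure D1:**
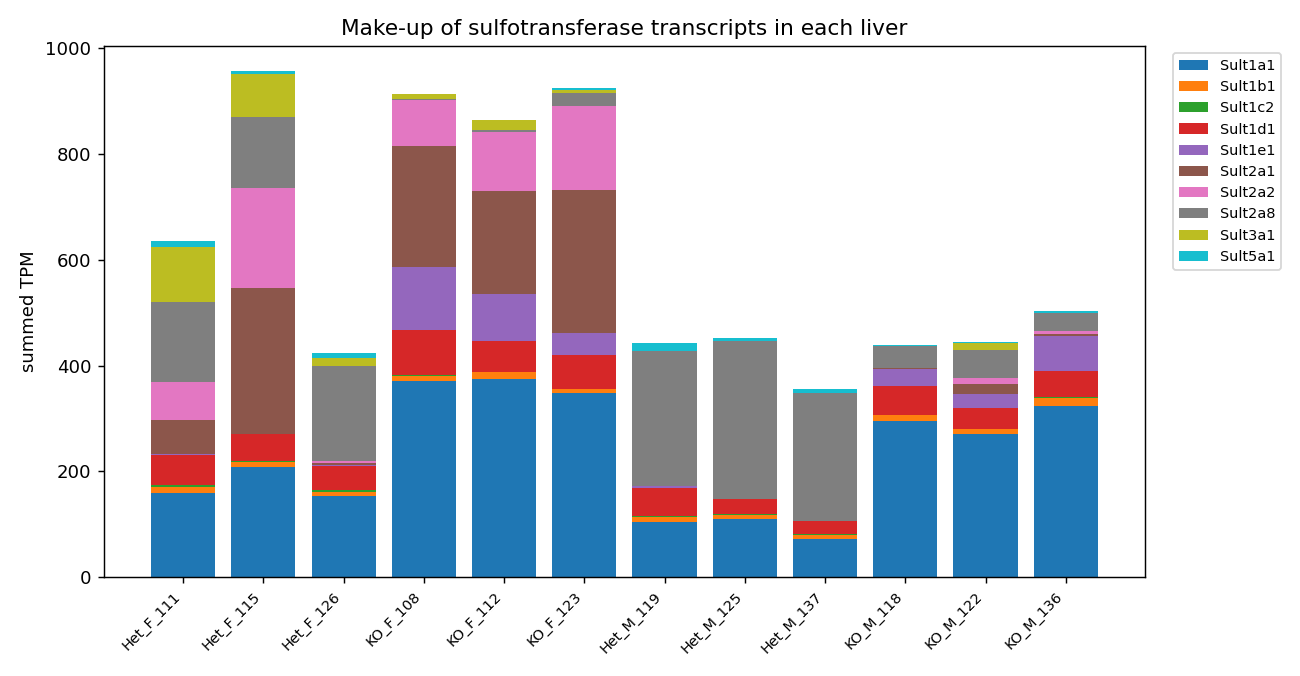
Stacked bars of the TPM of the 10 sulfotransferase genes in each of the 12 livers, with 1 color per gene. Sult2a8 forms the largest block in the Het males (57.5% to 68.5%) and Sult1a1 the largest in all 6 KO livers (37.6% to 67.4%).

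Across both sexes, KO and Het livers differed in 7 of the 10 genes by edgeR's quasi-likelihood test. Sult1a1, Sult1e1, Sult2a1 and Sult2a2 were higher in KO livers, and Sult1c2, Sult2a8 and Sult5a1 were lower. The calls of Sult2a1 and Sult2a2 were lost under several other settings, given with these genes below. Of all genes tested, 12.2% were called higher and 10.2% lower in this comparison. The 10 genes were chosen with earlier results of these data known, so their share of calls does not test the family. In females 2 genes were higher (Sult1a1 and Sult1e1) and 3 lower (Sult1c2, Sult2a8 and Sult5a1), against 5.94% and 5.10% of all genes. In males 3 were higher (Sult1a1, Sult2a1 and Sult2a2) and 1 lower (Sult5a1), against 4.47% and 2.98%. All KO livers lay above all Het livers for Sult1a1 and Sult1e1, as for 4.72% of all genes, and below them for Sult1c2, Sult2a8 and Sult5a1, as for 4.64%. The median log2 fold change of the 10 genes was 0.88, with 7 positive and 3 negative values, beside 0.02 over all genes. In these whole livers, fewer cells of a type and less RNA per cell cannot be told apart.

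**Figure D2:**
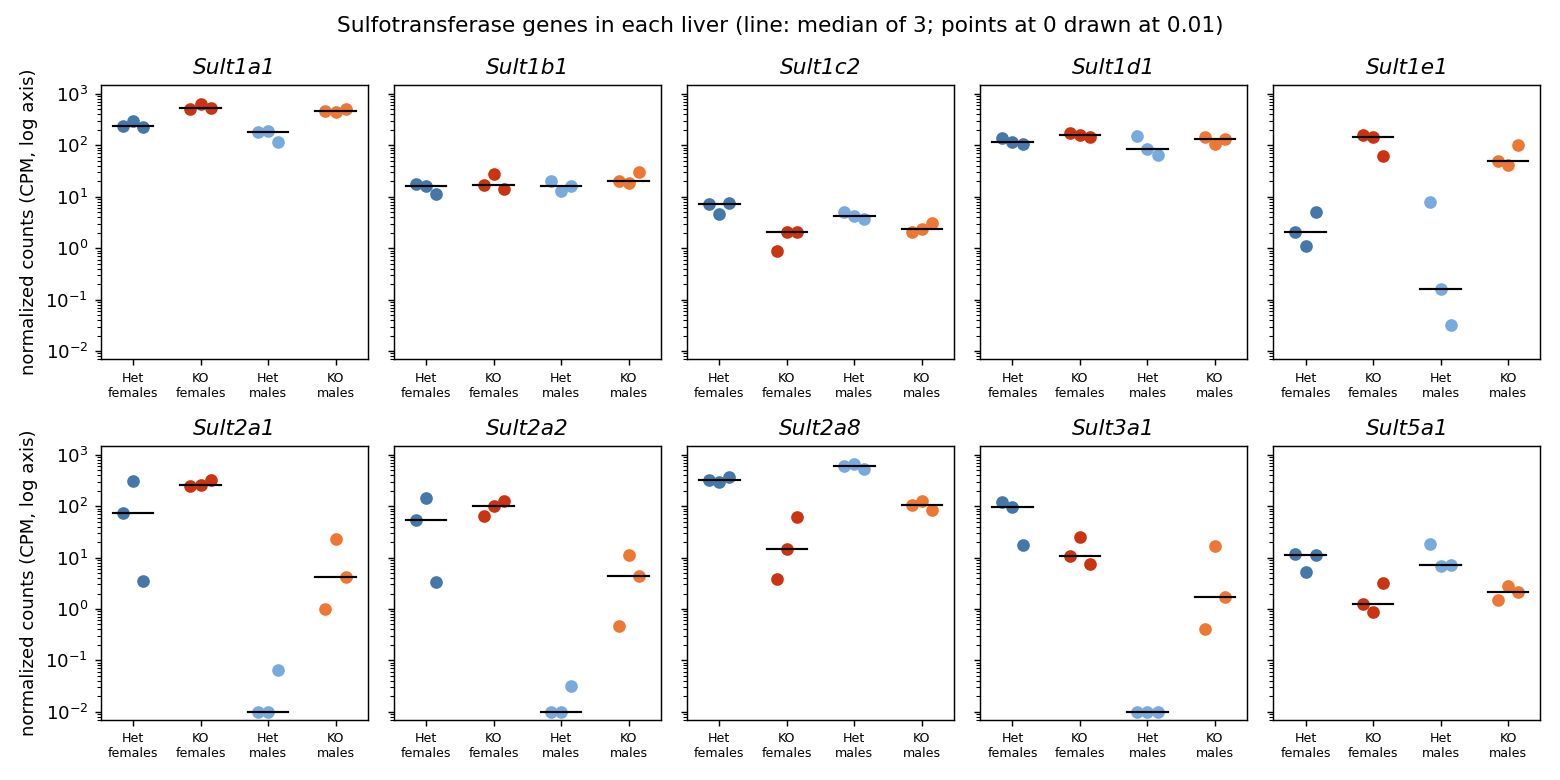
Normalized counts (CPM, log axis) of each sulfotransferase gene in the 4 groups, with 1 point per liver and a line at the median of 3. Sult1a1 and Sult1e1 lie higher in all 6 KO livers than in any Het liver, Sult1c2, Sult2a8 and Sult5a1 lie lower, and Sult2a1, Sult2a2 and Sult3a1 are at or near 0 in the 3 Het males.

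Sult1a1, the main phenol sulfotransferase of liver, was increased in KO livers of both sexes. In females it measured 234, 304 and 227 CPM in the Het livers and 514, 633 and 534 CPM in the KO livers. In males it measured 185, 189.5 and 114 CPM in the Het livers and 467, 443 and 505 CPM in the KO livers. The lowest KO liver (443 CPM) was above the highest Het liver (304 CPM). The log2 fold change was 1.13 ± 0.199 (SE, n = 3 against 3, edgeR adjusted p = 0.00734) in females and 1.53 ± 0.201 (adjusted p = 0.00122) in males. It was 1.33 ± 0.141 over both sexes (adjusted p = 1.39e-04), a 2.52-fold difference. The call held in each sex under every alternative tried.

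Sult1e1, the estrogen sulfotransferase, had the largest fitted increase of the 10 genes over both sexes. It measured 2.06, 1.1 and 5.12 CPM in the Het females and 162, 148 and 62.7 CPM in the KO females. In males it measured 7.94, 0.163 and 0.0320 CPM in the Het livers, the last of these from 1 count, and 50.5, 41.2 and 101 CPM in the KO livers. The KO livers thus lay between 41.2 and 162 CPM and the Het livers at 7.94 CPM or below, with Het_M_119 the highest of them. The log2 fold change was 5.0 ± 0.949 over both sexes (SE, n = 6 against 6, edgeR adjusted p = 0.00601) and 5.46 ± 1.37 in females (adjusted p = 0.0349). In males it was 4.55 ± 1.32 and missed the threshold by edgeR (adjusted p = 0.0688), but passed it by DESeq2 (adjusted p = 0.0118) and by limma on log2(TPM + 1) and log2(TPM + 0.1) (adjusted p = 0.00553 and 0.0221). Without Het_M_119, which held more than all other Het males, the male value was 8.71 (adjusted p = 0.00366) and the value over both sexes 7.08. The female call was lost with no filter on low counts (adjusted p = 0.0765) and without Het_F_111, Het_F_115, Het_F_126, KO_F_108, KO_F_112 or KO_M_118 (adjusted p = 0.0968, 0.0985, 0.0646, 0.0869, 0.0642 and 0.0505, log2 fold change 5.08 to 6.24). The share of Sult1e1 in the family's TPM was 0.00583% to 1.05% in Het livers and 4.57% to 13.4% in KO livers.

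Sult1c2, a further sulfotransferase of phenolic compounds, was low throughout and lower in KO livers. It measured 7.16, 4.72 and 7.71 CPM in the Het females and 0.868, 2.04 and 2.09 CPM in the KO females. In males the Het livers measured 5.0, 4.29 and 3.77 CPM and the KO livers 2.08, 2.39 and 3.13 CPM. The groups did not overlap in either sex, and the gap was wider in females. The log2 fold change was −1.93 ± 0.314 in females (SE, n = 3 against 3, edgeR adjusted p = 0.00533), −0.77 ± 0.306 in males (adjusted p = 0.149) and −1.35 ± 0.219 over both sexes (adjusted p = 0.00169). The difference between the sexes in this effect was 1.16 ± 0.434 and did not pass the test (adjusted p = 0.480).

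Sult1b1, which acts on thyroid hormones and phenols, and Sult1d1, which acts on catecholamines and phenols, were not called. Sult1b1 measured 11.5 to 18.0 CPM in Het females, 13.0 to 20.6 CPM in Het males, 14.2 to 27.8 CPM in KO females and 18.3 to 30.8 CPM in KO males. Its log2 fold change over both sexes was 0.43 (95% confidence interval −0.01 to 0.86, edgeR adjusted p = 0.144). Sult1d1 measured 105 to 141 CPM in Het females, 65.2 to 152 CPM in Het males, 145 to 178 CPM in KO females and 106 to 145 CPM in KO males. Its log2 fold change over both sexes was 0.38 (95% confidence interval −0.02 to 0.78, adjusted p = 0.158). Het_M_119 was the highest Het male for both genes, and without it the value of Sult1d1 was 0.58 and passed the test (adjusted p = 0.0123). Both intervals reach well above 0, so the data do not show that the levels were equal.

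Sult2a8, a bile acid sulfotransferase of mouse liver, had the largest fitted decrease of the 10 genes over both sexes. It measured 329, 289.9 and 367 CPM in the Het females and 3.90, 14.9 and 60.4 CPM in the KO females. In males it measured 612, 664 and 518 CPM in the Het livers and 103, 124.6 and 82.8 CPM in the KO livers. All KO livers lay at 124.6 CPM or below and all Het livers at 289.9 CPM or above, and within each genotype every male was above every female. The log2 fold change was −3.63 ± 0.760 in females (SE, n = 3 against 3, edgeR adjusted p = 0.0191), −2.53 ± 0.723 in males (adjusted p = 0.0647) and −3.08 ± 0.524 over both sexes (adjusted p = 0.00345). As a ratio, the KO females differed most from each other, with the highest 15.5 times the lowest, a larger ratio than in each other group, and without KO_F_123 the value was −5.13 in females and −3.84 over both sexes. The female call was lost without KO_F_112 (adjusted p = 0.0587) and in a fit to the female livers only (adjusted p = 0.0868). The male decrease passed the test in a fit to the male livers only (adjusted p = 4.03e-04), by DESeq2 (adjusted p = 7.68e-04) and by limma on log2(TPM + 1) (adjusted p = 0.0362), with log2 fold changes between −2.74 and −2.40 over all alternatives. It also passed without KO_F_108 (adjusted p = 0.00648) or KO_F_123 (adjusted p = 0.00497). The sexes of the KO mice differed by 1.97 ± 0.711 (adjusted p = 0.303), and by 3.44 without KO_F_123 (adjusted p = 0.0133).

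Sult2a1, the hydroxysteroid sulfotransferase that acts on dehydroepiandrosterone and bile acids, was nearly absent from Het males and present in KO males. The Het males held 0, 0 and 2 counts (0, 0 and 0.0640 CPM), and the KO males measured 0.996, 23.3 and 4.18 CPM. The Het females measured 73.7, 309 and 3.52 CPM and the KO females 246, 256 and 321 CPM. The KO males were above all Het males and below all KO females. Among the Het females only Het_F_126 was as low as the KO males, between KO_M_118 and KO_M_136. A floor of 3 counts per library, which covers counting error only, was set for the Het males. The mean of the KO males was at least 97.1-fold above it, and at least 26.4-fold without KO_M_122. KO_M_118, at 0.996 CPM, lay nearer to this floor (mean 0.0979 CPM). The fitted log2 fold change, which depends on the prior count where a group is at 0, was 6.94 ± 1.67 in males (SE, n = 3 against 3, edgeR adjusted p = 0.0254). In females it was 1.09 (95% confidence interval −1.25 to 3.44, adjusted p = 0.546), and over both sexes 4.01 ± 1.0 (adjusted p = 0.0132).

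Sult2a2, its close copy, ranked the livers within each group as Sult2a1 did. The Het males held 0, 0 and 1 count, and the KO males measured 0.476, 11.1 and 4.38 CPM. The Het females measured 53.8, 143 and 3.39 CPM and the KO females 64.0, 99.4 and 127 CPM. KO_M_122 was again the highest KO male, Het_F_115 the highest Het female and Het_F_126 the lowest. By their mean against the same floor, KO males were at least 54.4-fold higher than Het males, and at least 24.8-fold without KO_M_122. The fitted log2 fold change was 6.32 ± 1.59 in males (SE, n = 3 against 3, edgeR adjusted p = 0.0356), 0.54 in females (95% confidence interval −1.69 to 2.77, adjusted p = 0.768) and 3.43 ± 0.946 over both sexes (adjusted p = 0.0244). In the 9 livers that expressed them, the ratio of Sult2a1 to Sult2a2 in TPM ranged from 0.649 to 2.62.

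The calls of Sult2a1 and Sult2a2 were lost in several fits with 1 liver left out, while the direction stayed the same. Over both sexes, Sult2a1 lost its call without Het_M_119, Het_M_125 or Het_M_137 (edgeR adjusted p = 0.0568, 0.0566 and 0.0804), as did Sult2a2 (0.0607, 0.0596 and 0.0905). In males, Sult2a1 lost its call without Het_M_119, Het_M_125, Het_M_137 or KO_M_122 (adjusted p = 0.127, 0.134, 0.156 and 0.0694). Sult2a2 lost its male call without Het_M_119, Het_M_125, Het_M_137, KO_M_122, KO_F_108 or KO_M_136 (adjusted p = 0.113, 0.118, 0.151, 0.0749, 0.0528 and 0.0586). Over both sexes the log2 fold change of Sult2a1 ranged from 3.08 without KO_M_122 to 4.87 without Het_F_115, and that of Sult2a2 from 2.87 to 4.02 without the same livers. In males it stayed between 5.08 and 7.44 for Sult2a1 and between 5.2 and 6.83 for Sult2a2. Over both sexes, the calls were also lost without interaction in the model (adjusted p = 0.150 for Sult2a1 and 0.213 for Sult2a2) and by limma on log2(TPM + 1) (0.115 and 0.151). Sult2a2 lost its call with no filter on low counts as well (0.0685) and by limma on log2(TPM + 0.1) (0.0510). In males, both lost their calls by the older quasi-likelihood method (0.0654 and 0.0651), with no filter (0.0609 and 0.0984) and by limma with a pseudocount of 1 (0.365 and 0.312) and 0.1 (0.0978 and 0.0742). In females, where neither gene was called, the value of Sult2a1 was 2.81 without Het_F_115 and that of Sult2a2 was −0.04 without Het_F_126.

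Sult3a1, which acts on amines, had opposite signs in the 2 sexes, and neither effect passed the test by edgeR. It measured 122.4, 96.7 and 17.4 CPM in the Het females and 10.8, 25.2 and 7.56 CPM in the KO females, which overlap. The 3 Het males held 0 counts, and the KO males measured 0.408, 16.8 and 1.71 CPM. By their mean against the same floor, KO males were thus at least 64.3-fold higher than Het males, and at least 10.8-fold without KO_M_122. The fitted log2 fold change was −2.44 in females (95% confidence interval −5.32 to 0.45, edgeR adjusted p = 0.239) and 6.81 in males (2.46 to 11.17, adjusted p = 0.0722). The effect in males minus that in females was 9.25 ± 2.26, with an unadjusted p of 0.00371 from edgeR's fit across all genes and an adjusted p of 0.353. DESeq2 called this interaction (12.45 ± 2.21, adjusted p = 1.10e-05), the effect in males (10.02 ± 1.77, adjusted p = 1.38e-06) and the effect over both sexes (3.79 ± 1.11, adjusted p = 0.00446), but not that in females (adjusted p = 0.201).

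Sult5a1, whose substrates are little known, was lower in KO livers by similar amounts in both sexes. It measured 11.8, 5.13 and 11.2 CPM in the Het females and 1.24, 0.867 and 3.27 CPM in the KO females. In males it measured 18.5, 6.80 and 7.07 CPM in the Het livers and 1.47, 2.74 and 2.18 CPM in the KO livers. The highest KO liver (3.27 CPM) was below the lowest Het liver (5.13 CPM). The log2 fold change was −2.34 ± 0.553 in females (SE, n = 3 against 3, edgeR adjusted p = 0.0253), −2.32 ± 0.550 in males (adjusted p = 0.0292) and −2.33 ± 0.390 over both sexes (adjusted p = 0.00251). The female call was lost without Het_F_111, Het_F_126, KO_F_108 or KO_F_112 (adjusted p = 0.0631, 0.0626, 0.0982 and 0.0703), and its value was −3.09 without KO_F_123. The male call was lost without Het_M_119, KO_M_118, KO_M_122 or KO_M_136 (adjusted p = 0.0865, 0.106, 0.0622 and 0.0898), and its value was −1.69 without Het_M_119. With no filter on low counts both calls were lost (adjusted p = 0.0528 and 0.0677), as was the female call in a fit to the female livers only (0.0706). The call over both sexes held without any 1 liver.

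**Figure D3:**
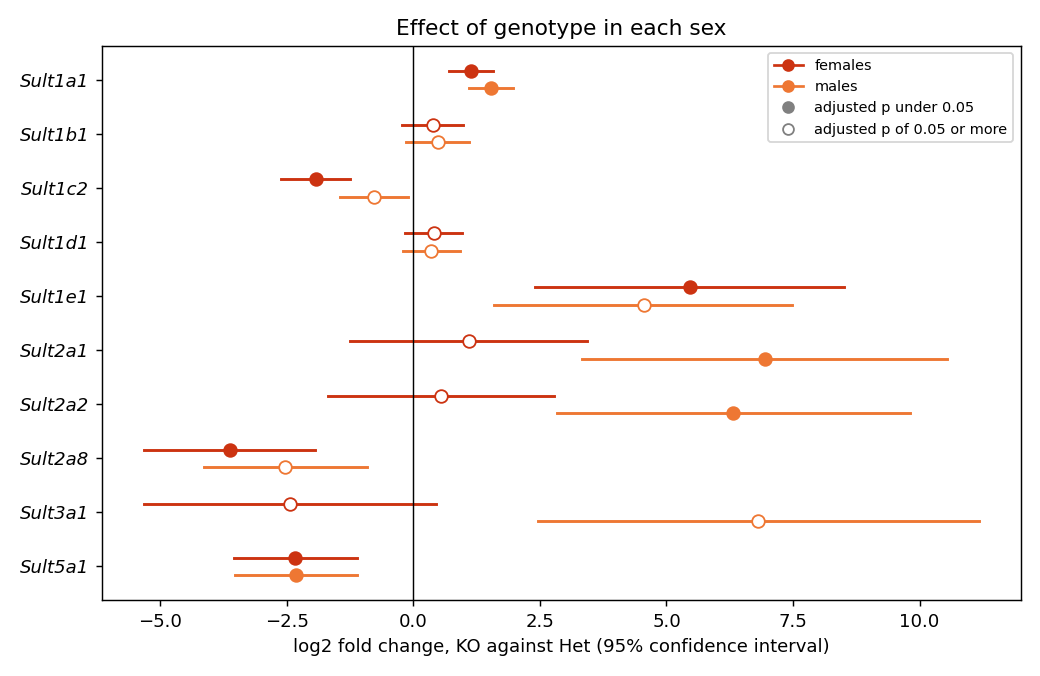
Log2 fold change of KO against Het livers for each sulfotransferase gene, in females and in males, with 95% confidence intervals from edgeR and filled points where the adjusted p is under 0.05. The interval of Sult3a1 in males is the widest (2.46 to 11.17), and Sult1a1 and Sult5a1 are filled in both sexes.

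Between the sexes, Sult2a1 and Sult2a2 were lower in Het males than in Het females, as were 0.460% of all genes. By the mean of the Het females against the floor (0.0979 CPM), Sult2a1 was at least 1314-fold lower in Het males, or 394-fold if Het_F_115 was left out. These bounds do not hold for each female, since Het_F_126 measured 3.52 CPM of Sult2a1 and 3.39 CPM of Sult2a2. Sult2a2 was at least 681-fold lower by the same mean, or 292-fold if Het_F_115 was left out. The edgeR adjusted p was 0.0104 for Sult2a1 and 0.0170 for Sult2a2, and both calls were lost without any 1 of the Het males (adjusted p = 0.153, 0.116 and 0.218 for Sult2a1 and 0.110, 0.0771 and 0.188 for Sult2a2 without Het_M_119, Het_M_125 and Het_M_137) and by limma on log2(TPM + 1) (0.124 and 0.0837). That of Sult2a1 was lost by the older method too (0.0571) and that of Sult2a2 with no filter (0.0624). Sult3a1 was at least 806-fold lower in Het males by the mean of the Het females (at least 583-fold without Het_F_111). The difference missed the threshold by edgeR (adjusted p = 0.0733). It passed without KO_M_118 or KO_M_122 (adjusted p = 0.0433 and 0.0221), by DESeq2 (4.91e-12) and by limma on log2(TPM + 1) and log2(TPM + 0.1) (0.0139 and 0.00435).

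In KO livers no member was called between the sexes by edgeR, against 0.0517% of all genes. An unadjusted p under 0.05 was found by edgeR for 3 members and for 2445 of all 19350 genes. DESeq2 called 1 member, Sult2a1 (log2 fold change −4.87, adjusted p = 0.0388). The KO males still measured below all KO females in Sult2a1 and Sult2a2 (log2 fold change −4.85 ± 1.27, edgeR adjusted p = 0.200, and −4.18 ± 1.16, adjusted p = 0.229), so the data do not show that the sex difference was absent. For Sult3a1 the KO sexes overlapped. No member's genotype effect was called as different between the sexes, against 0.0465% of all genes. For this difference an unadjusted p under 0.05 was found by edgeR for 4 members (Sult1c2, Sult2a1, Sult2a2 and Sult3a1) and for 1795 of all 19350 genes. DESeq2 called 2 of these members, Sult3a1 and Sult2a2 (8.28 ± 2.16, adjusted p = 0.0176).

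Of the 17 other genes named in the family, 7 passed the filter, and 9 of the 10 that did not held at most 5 counts in every liver. Sult2a7, which lies beyond Sult2a8 on chromosome 7, was the only one of the 7 that was called. It measured 14.7, 39.6 and 7.84 CPM in the Het females and 0.434, 0.681 and 2.60 CPM in the KO females, without overlap, and 0.874 to 1.43 CPM in all males. Its log2 fold change was −3.98 ± 0.697 in females (SE, n = 3 against 3, edgeR adjusted p = 0.00911) and −0.13 ± 0.679 in males (adjusted p = 0.934). Sult2a3 and Sult2a5, also of this row, had 0 counts in the Het males, and had their lowest female value in Het_F_126 (0.173 and 0.497 CPM), the female also lowest in Sult2a1 and Sult2a2. Sult3a2, the neighbor of Sult3a1, was at 0 in the Het males too, and measured 10.3, 7.73 and 0.216 CPM in the Het females and 0.402 to 1.61 CPM in the KO females.

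**Figure D4:**
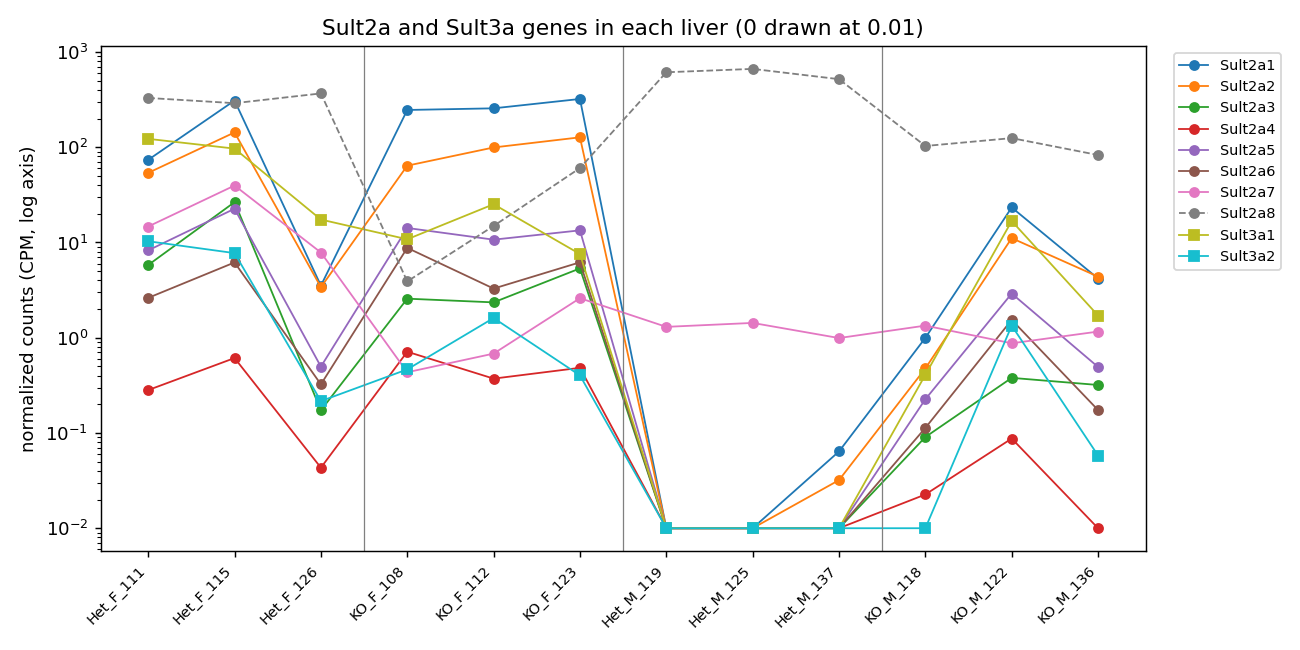
Normalized counts (CPM, log axis, 0 drawn at 0.01) of the Sult2a and Sult3a genes in each liver, with lines joining the values of 1 gene. Sult2a1 to Sult2a6 and both Sult3a genes drop in Het_F_126 and in the Het males and are highest among the KO males in KO_M_122, whereas Sult2a8 is highest in the Het males (518 to 664 CPM) and Sult2a7 differs little among the males.

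The genes whose profile over the 12 livers was most like that of a member were found from the root mean square difference of standardized log2 CPM, with a median over all genes between 1.34 and 1.37. For Sult2a1 the nearest gene outside the family was Cyp3a41b, a female-predominant cytochrome P450 (difference 0.222), while Sult2a2 was nearer still (0.108). For Sult2a2 it was Cyp17a1 (0.290), a steroid hydroxylase, and for Sult3a1 it was Cyp2b13 (0.323), another female-predominant cytochrome P450. For Sult1a1 it was Lcn2 (0.215), which encodes an acute-phase protein, for Sult1e1 Ppp3cc (0.206), a calcineurin subunit, and for Sult2a8 Hdac3 (0.160), a histone deacetylase. For Sult1c2 it was Chn2 (0.323), for Sult5a1 A330009N23Rik (0.301), for Sult1b1 Tbcd (0.394) and for Sult1d1 Ppargc1a (0.384). All these profiles share the same 12 libraries, and likeness alone was described.

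The nearest tested genes on either side of the members were compared with the same test. Beside the chromosome 5 cluster, Ugt2b38, a UDP-glucuronosyltransferase, fell from a mean of 16.9 to 0.0927 CPM (log2 fold change −4.58 ± 0.492, edgeR adjusted p = 1.94e-04) while Sult1e1 rose. Jchain, on the other side, was not called (−0.40 ± 0.328, adjusted p = 0.403). It lay 928207 bases from the cluster, against 89129 bases for Ugt2b38. Beside the chromosome 7 cluster, Gm57195, on the side of Sult2a8, was lower in KO livers (−3.48 ± 0.520, adjusted p = 7.40e-04, from a mean of 2.41 to 0.233 CPM), as Sult2a8 was. Zbed4-ps1, on the other side, was not called (−1.30 ± 5.34, adjusted p = 0.890). Its mean was also lower in KO livers (2.29 to 0.183 CPM), and its error was too wide to tell a change from none. The 8 neighbors of the other 4 members had adjusted p between 0.0856 and 0.896. Their distances ran from 5004 bases (Cpne7, near Sult5a1) to 1805533 bases (Pot1b, from Sult1c2).

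Genes for the supply of the sulfonate donor were read next. Over both sexes, 12.2% of all genes were called higher in KO livers and 10.2% lower. Of 6 genes for the synthesis, transport and breakdown of PAPS, 1 was called in KO against Het livers over both sexes (median log2 fold change −0.19), namely Slc35b3, a PAPS transporter of the Golgi, which was higher (0.42 ± 0.121, edgeR adjusted p = 0.0282). Papss2, which makes PAPS in liver, had a value of −0.27 ± 0.167 (adjusted p = 0.270), which averages −0.77 ± 0.237 in females (adjusted p = 0.0556) and 0.23 ± 0.236 in males (adjusted p = 0.598). Papss1, which also makes PAPS, had a value of −0.26 ± 0.143 (adjusted p = 0.218), and Bpnt1, which breaks down the spent donor, −0.27 ± 0.127 (adjusted p = 0.147). Of 5 tested genes of sulfate supply, 1 was higher and 2 lower (median −0.23). Cdo1, which starts the conversion of cysteine to sulfate, was 0.33 ± 0.10 higher (adjusted p = 0.0346). Slc26a1, a sulfate transporter of the hepatocyte membrane, fell by 0.98 on the log2 scale (adjusted p = 0.0127), and the sulfate transporter Slc13a4 by 1.86 (adjusted p = 0.0108) from a mean of 0.626 CPM.

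Of 11 sulfatases and their activators, which act on sulfate esters in the opposite direction, 2 were higher and 1 lower (median 0.04). The shares over all genes were 12.2% higher and 10.2% lower. Galns and Arsg, lysosomal sulfatases of glycosaminoglycans, rose by 1.15 ± 0.159 (edgeR adjusted p = 6.83e-04) and 1.18 ± 0.177 (adjusted p = 0.00105), and Arsa, which acts on sulfatide, fell by 1.30 (adjusted p = 9.61e-04). Sts, the steroid sulfatase, had a value of 0.27 ± 0.250 (adjusted p = 0.474). Of both Golgi enzymes that sulfate tyrosines of proteins, Tpst2 was called higher (0.36 ± 0.115, adjusted p = 0.0421) and Tpst1 was not called (−0.23 ± 0.152, adjusted p = 0.311).

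Of 14 nuclear receptors, many of which bind substrates of these enzymes, 1 was higher and 4 were lower in KO livers (median −0.13). The shares over all genes were 12.2% higher and 10.2% lower. Nr1h4, the bile acid receptor, fell by 1.03 (edgeR adjusted p = 0.00127), Nr1h3, an oxysterol receptor, by 0.49 (adjusted p = 0.00199), Ppara, the fatty acid receptor, by 1.37 (adjusted p = 0.00207) and Rxra, their common partner, by 0.37 (adjusted p = 0.0264). Esr1, the estrogen receptor, rose by 0.93 ± 0.152 over both sexes (adjusted p = 0.00181), by 1.55 ± 0.219 in males (adjusted p = 0.00196), and had a value of 0.30 ± 0.213 in females (adjusted p = 0.387). Nr1i2 and Nr1i3, the xenobiotic receptors, had values of −0.20 ± 0.238 and −0.31 ± 0.240 (adjusted p = 0.579 and 0.388).

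Of 12 regulators of growth hormone signaling and sex-dependent expression in the liver, 4 were higher and 3 lower in KO livers over both sexes (median −0.11). The shares over all genes were 12.2% higher and 10.2% lower. Cux2, a female-predominant repressor, rose by 3.50 ± 0.371 (edgeR adjusted p = 2.83e-04), Socs2, a target and inhibitor of growth hormone signaling, by 2.0 ± 0.438 (adjusted p = 0.0108), and Stat5b, its main signal transducer, by 0.50 ± 0.0958 (adjusted p = 0.00405). Trim24 was called over both sexes (0.38 ± 0.125, adjusted p = 0.0466) with opposite signs in the sexes, at −0.31 ± 0.176 in females (adjusted p = 0.261) and 1.07 ± 0.178 in males (adjusted p = 0.00512). Ghr, the growth hormone receptor, fell by 1.39 (adjusted p = 0.00874), Bcl6, a male-predominant repressor, by 2.08 (adjusted p = 0.0148) and Foxa1 by 1.01 (adjusted p = 0.00867). In males the value was 5.65 ± 0.587 for Cux2 (adjusted p = 6.99e-04) and −3.30 ± 0.724 for Bcl6 (adjusted p = 0.0251), whereas in females it was 1.36 ± 0.466 (adjusted p = 0.0859) and −0.87 ± 0.672 (adjusted p = 0.433). For Cux2, Bcl6, Trim24 and Esr1 the difference between the sexes in this effect did not pass the test (adjusted p = 0.0810, 0.492, 0.0868 and 0.244). How far these genes bear on the sulfotransferases was not tested.

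**Figure D5:**
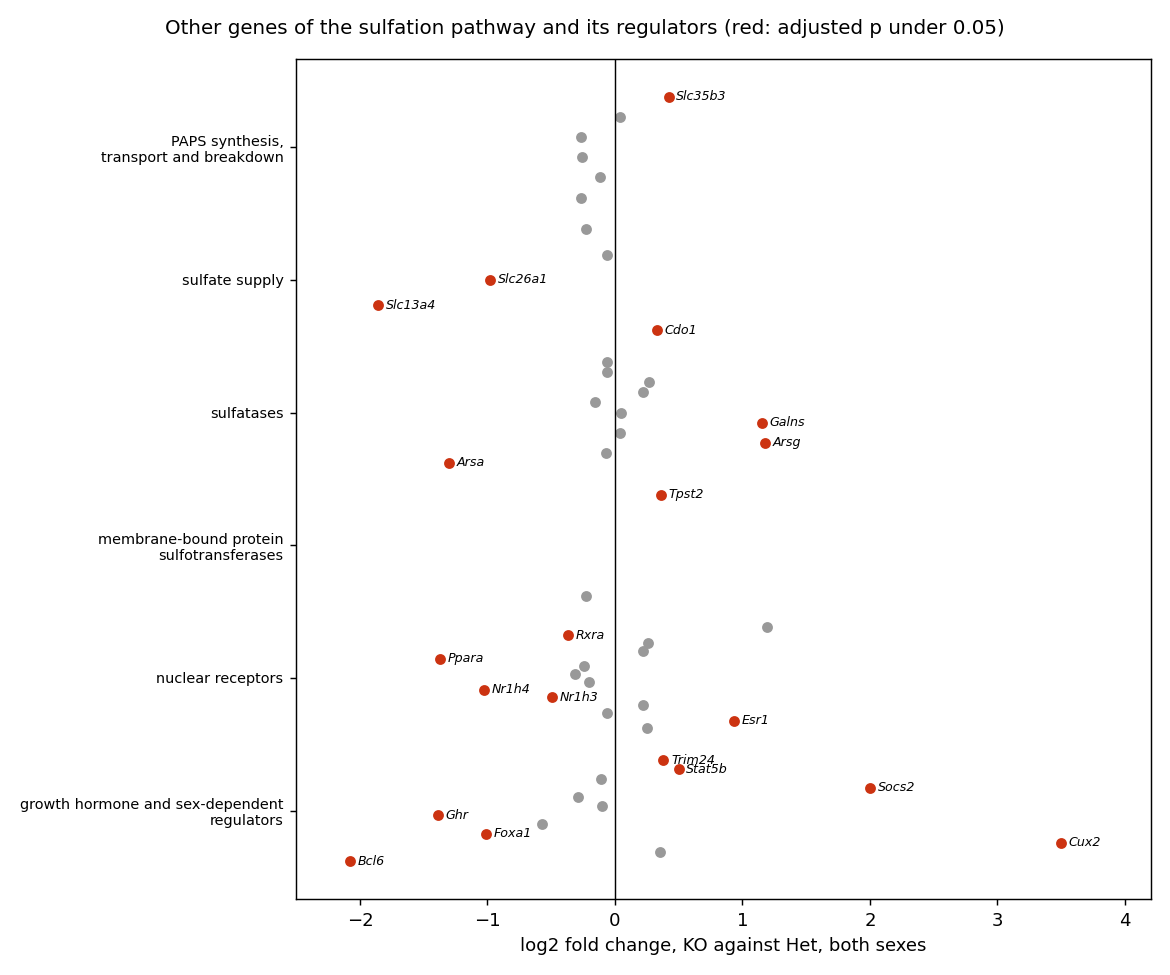
Log2 fold change of KO against Het livers over both sexes for the genes of 6 lists around sulfation, with called genes in red and named. The receptor list holds 4 called genes at the left (lower in KO) and 1 at the right, and Cux2 has the largest increase (3.50).

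Markers of hepatocytes and other cells were compared with the same test. Over both sexes, 12.2% of all genes were called higher in KO livers and 10.2% lower. Of 8 hepatocyte markers 1 was higher and 2 lower (median 0.16), and their summed level was 59552 to 83302 CPM in Het livers and 77216 to 133518 CPM in KO livers. Of 6 Kupffer cell markers 3 were higher (summed level 89.6 to 248 CPM in Het and 132 to 414 CPM in KO livers), and of 3 tested neutrophil markers 1 was higher (0.390 to 2.96 and 1.51 to 3.22 CPM). Of 6 stellate cell markers 2 were lower (238 to 437 and 118.4 to 258 CPM), and of 6 markers of the sinusoidal endothelium 4 were lower (171 to 318 and 118.8 to 210.5 CPM). None of 6 cholangiocyte markers (30.2 to 61.4 and 16.2 to 52.2 CPM) and none of 6 lymphocyte markers (1.40 to 4.32 and 0.806 to 3.73 CPM) was called by edgeR or had an unadjusted p under 0.05. Of 3 tested erythroid markers 1 was lower (109 to 483 and 79.6 to 195 CPM). Markers of other tissues that express sulfotransferases were read as well, in lists of 4 genes each. Of the kidney markers, Umod, Slc34a1 and Slc12a1 held at most 3 counts in every liver, and Lrp2 was lower in KO livers (−1.43 ± 0.394, adjusted p = 0.0234, summed level of the list 0.357 to 2.74 CPM in Het and 0.145 to 0.836 CPM in KO livers). Of the intestine markers, Cdx2 and Sis held at most 3 counts in every liver, Vil1 was not called, and Fabp2, a fatty acid binding protein, was lower (−1.48 ± 0.213, adjusted p = 9.51e-04), with a summed level of 29.0 to 45.7 CPM in Het and 6.48 to 24.9 CPM in KO livers. Of the adrenal cortex markers, Nr5a1 held at most 3 counts in every liver, and neither of the 2 tested, Star and Cyp21a1, was called over both sexes (1.71 to 4.0 and 1.61 to 2.94 CPM), while Cyp21a1 was lower in males (−2.69 ± 0.502, adjusted p = 0.00855). The part of these other cells and tissues in the sulfotransferase results was not tested.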

How the data were processed

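Liver RNA of 12 mice was sequenced by the study as stranded libraries depleted of ribosomal RNA. Per the labels and the methods, reads were aligned with STAR 2.7.9a to GRCm39, and the authors deposited estimated counts per gene from Salmon 1.10.1 with the GENCODE annotation, as well as length-scaled estimated counts and TPM. Samples were grouped by genotype and sex from their titles, and mouse numbers named replicates only. The deposited estimated counts, of which 11.97% of values were not whole, were rounded. Genes with at least 5 counts, after scaling to the median library, in at least 3 livers were kept (19350 of 57180). Totals were 30044812 to 43634073 counts per liver (median 34491939).

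The quasi-likelihood test of edgeR 4.0.16 (R 4.3.3) was applied with TMM scaling, robust estimation and a prior count of 2, on the means of the 4 groups. This test, filter and prior count follow the study's methods. For genotype over both sexes, 4330 of 19350 genes were called here, whereas the study reported fewer, from slightly more tested genes. The cause of this difference was not tested. A Benjamini-Hochberg adjusted p under 0.05 over all 19350 genes was called, and errors of log2 fold changes are standard errors from the F statistic. P-values rest on the spread between mice within groups, estimated from all 4 groups in a single fit and drawn toward that of other genes. A liver of either sex can therefore move the p-value of the other sex. Bounds compare the mean CPM of the expressing group with a floor of 3 counts per library, averaged over the other group. They cover counting error only and are not minima over single livers. The test was tried on simulated data first. DESeq2 1.42.0 on the counts and limma 3.58.1 on log2(TPM + 1) and log2(TPM + 0.1) of the deposited TPM were alternatives, beside other filters, scalings and samples. The older quasi-likelihood method was added after seeing the data.

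Coordinates, transcripts and windows of 280 bases around the start were read from GRCm39 and GENCODE M39, whereas the authors used release M34. The windows replaced RefSeq windows of an older build. All 10 members are named, with the family's other genes, the 3 genes of smallest p of each list, further list genes chosen after their values were seen, the gene of nearest profile and the nearest tested neighbors. Hnf6 of the regulator list has no gene name of its own in the tables. Members and lists were chosen with earlier results of these data known. A few items of the lists and sequences are not reported here.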

Additional observations from a re-analysis of the deposited data

How the results depend on the processing

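Of 1346 refitted log2 fold changes of the 10 genes, 1227 kept direction and side of the threshold, 60 lost a call, 23 gained a call and 36 changed sign, and none of the sign changes was in a called value. No paired analysis was possible because the labels give no litter and the mouse numbers are not shared between groups. Calls between KO and Het over both sexes numbered 4 with at least 10 counts required in every liver, which removed Sult1e1, Sult2a1, Sult2a2 and Sult3a1 from the test. Female calls numbered 3 with no filter on low counts and 3 in a fit to the female livers only. Male calls numbered 7 by DESeq2, 2 with at least 10 counts in every liver, 1 with no filter and 2 with the older quasi-likelihood method, which was added after seeing the data. Calls between the sexes of Het mice numbered 0 with at least 10 counts, 4 by limma on log2(TPM + 0.1), 1 with no filter and 1 with the older method. DESeq2 called 1 member between the sexes of KO mice and 2 for the interaction. Apart from the stricter filter, the cause of these differences was not tested. Leaving out 1 liver gave 5 to 7 calls over both sexes, 2 to 5 in females, 1 to 5 in males, 0 to 3 between Het sexes, 0 to 1 between KO sexes and 0 for the interaction. The calls over all genes under these settings are not given here, so these counts do not set the 10 genes apart from other genes. All these sign changes were in values that were not called. By limma on log2(TPM + 1) the genotype effect of Sult3a1 over both sexes was −0.19 and the interaction of Sult2a1 −0.03. By limma with a pseudocount of 1 and 0.1, the Het sex difference was −0.08 and −0.09 for Sult1b1 and −0.05 and −0.06 for Sult5a1, and the interaction of Sult1d1 was 0.06 and 0.07, and 0.10 with library size only. The interaction of Sult1e1 was 0.84 with a pseudocount of 0.1. With 1 liver left out, the female effect of Sult2a2 ranged from −0.04 to 1.75, the Het sex difference from −0.06 to 0.26 for Sult1b1, −4.23 to 0.74 for Sult1e1 and −0.45 to 0.43 for Sult5a1, and the KO sex difference from −0.03 to 0.56 for Sult1b1 and −0.10 to 0.96 for Sult5a1. The interaction then ranged from −0.15 to 0.42 for Sult1b1, −0.28 to 0.38 for Sult1d1, −1.70 to 3.26 for Sult1e1 and −0.30 to 0.77 for Sult5a1. The all-gene median moved by over 0.1 in the interaction (0.16 with library size only, 0.15 by limma on log2(TPM + 0.1)) and the Het sex difference (−0.17 by the latter). With 3 mice a group, genes near 0 in a group have wide intervals, and their fitted folds depend on the prior count.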
